A study of Rattus norvegicus with 6 samples.

Results

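The probes described here were chosen for a brief rise in samples of rat hypothalamus. In rats with free access to water their signal was high after 2 days of heat and back near the unheated level after 30 days. Whether this was a response to heat was not tested, since no group held replicates. The probes were selected by a rule on 3 of the 6 samples. A probe had to be at least 2-fold higher at 2 days than both in the untreated control and at 30 days, and the 30-day value had to lie less than 2-fold from the control. Of 884 probes on the array table, 133 met these folds. A filter kept the 663 probes whose mean over the 6 samples lay above the 25th percentile of probe means, and 105 of the 133 passed it, which is 15.8% of the kept probes. These 105 are called the transiently raised probes.

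Heat acclimation develops in stages, from an early phase with strong autonomic drive to a later phase in which the body works more economically in the heat. The hypothalamus takes part in both heat and water balance: its preoptic neurons respond to body temperature, and its magnocellular neurons release vasopressin when the blood becomes more concentrated. Loss of body water and heat therefore reach overlapping hypothalamic circuits, and the series crossed them.

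Each sample was rat hypothalamus, and each of the 6 groups held 1 sample. The euhydrated groups were the untreated control, short-term heat acclimation of 2 days and long-term heat acclimation of 30 days. The hypohydrated groups had lost 10% of body weight through water deprivation, without heat, with 2 days of heat or with 30 days of heat. The sources used here state neither strain, sex and age of the rats nor the heat temperature, nor how many animals a sample holds. The series text mentions 9 arrays per hydration state, against 3 deposited columns for each.

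The probe identifiers were not paired with genes, and 0 of 884 matched the rat gene table used here, so the probes are named by identifier only and no gene, sequence or position is given. Tissue markers could not be checked for the same reason. With 1 sample in a group no replicate error exists and no difference between 2 groups could be tested, so all differences below are between single samples. The deposited intensities differed in spread, with an SD of log2 intensity over probes from 0.66 in the hypohydrated unheated sample to 2.14 in the hypohydrated 2-day sample. Values were therefore quantile-normalized, which gives every sample the same distribution. They are normalized intensities with a floor of 0.143, and a fold against a value at the floor is a lower bound.

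The selecting values are given first, as a description. The median normalized intensity of the 105 probes was 0.27 in the untreated control (range 0.143 to 1.06), 1.08 after 2 days of heat (0.451 to 5.05) and 0.264 after 30 days (0.143 to 1.37). The probes stood at a median rank of the 30.3th percentile of all probes in the control, the 85.0th at 2 days and the 29.5th at 30 days. Ranks are read here across samples for the same probes and do not depend on scaling. The median excess over the control was 3.87-fold and the median excess over 30 days was 3.95-fold. Of all kept probes 30.0% were at least 2-fold higher at 2 days than in the control, and 27.1% at least 2-fold higher than at 30 days. About as many were at least 2-fold lower at 2 days, 28.8% against the control and 27.9% against 30 days. The opposite rule, a value lowered at 2 days only, was met by 149 kept probes in the euhydrated samples. In the control 14 of the 105 transiently raised probes lay at the floor and at 30 days 20 did, 8 of them in both. None of the 105 was at the floor in either 2-day sample.

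**Figure D1:**
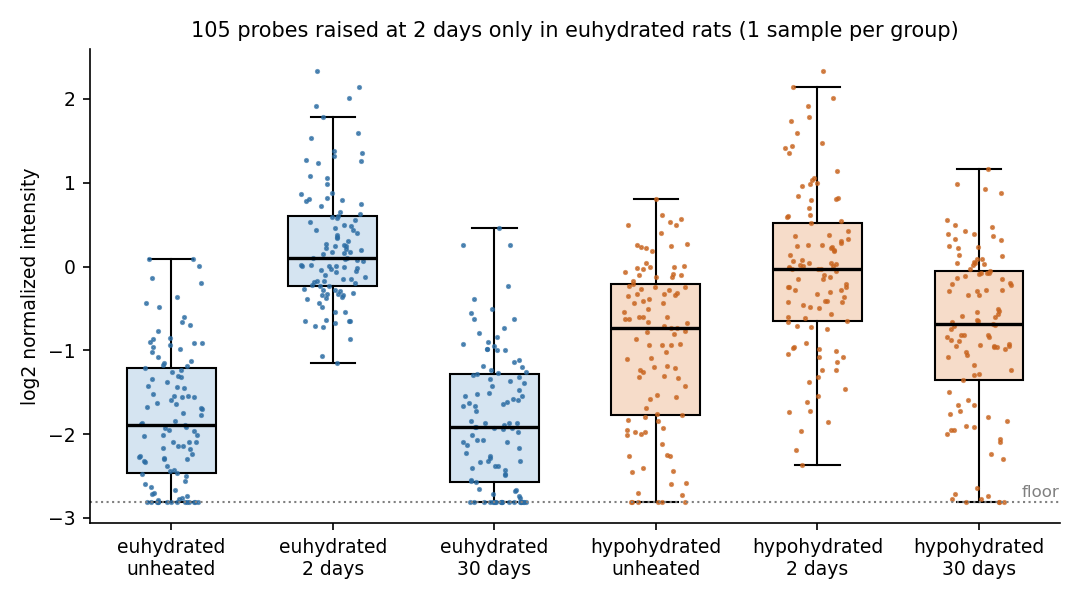
Log2 normalized intensity (vertical axis) of the 105 transiently raised probes in each of the 6 samples (horizontal axis). Points are probes, boxes span the quartiles with the median as a line, whiskers reach the furthest probe within 1.5 box lengths, and the dotted line is the floor. The euhydrated samples chose the probes; in the hypohydrated samples the medians were 0.602, 0.978 and 0.62 in linear units, so the 2-day box lies above the other 2 but overlaps them.

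Probe R155 had normalized intensities of 0.203 in the control, 2.42 at 2 days and 0.186 at 30 days. Probe R052 had 0.385, 4.43 and 0.323 in the same order. These had the largest folds of the probes above the floor in the 3 euhydrated samples, with a smaller fold (the lower of the folds over control and over 30 days) of 11.9 for R155 and 11.5 for R052. The 2-day sample was far above both others for each. With hypohydration R155 read 0.888 in the unheated, 1.8 in the 2-day and 0.639 in the 30-day sample. R052 read 0.689, 4.43 and 0.567 there. Both probes thus met the folds of the rule again with water deprivation. The 2-day value of R052 lay 6.43-fold above the unheated and 7.80-fold above the 30-day hypohydrated sample. That of R155 lay only 2.02-fold and 2.81-fold above them. The hypohydrated unheated value of R155 lay 4.37-fold above the control.

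At the threshold the probes differed little from those left out. RG444 and R303 lay just inside, with a smaller fold of 2.03 and 2.04, and R568 and R074 just outside, with 1.99 and 1.97. In all, 10 of the 105 had a smaller fold under 2.2, and 12 kept probes with a 30-day value less than 2-fold from the control had one between 1.8 and 2. RG444 had hypohydrated values of 0.143, 1.2 and 0.143 across the heat stages, with both low values at the floor. R074, left out by the rule, had 0.237, 1.02 and 0.147.

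The 3 hypohydrated samples had no part in the fold rule, although they entered the normalization and the filter. There the median normalized intensity of the 105 probes was 0.602 without heat (range 0.143 to 1.75), 0.978 at 2 days (0.193 to 5.05) and 0.62 at 30 days (0.143 to 2.24). The 2-day sample was again the highest, but the ranges overlapped widely. The median ranks were the 59.6th, 81.4th and 61.1th percentile. In hypohydrated rats the probes were thus nearly as high at 2 days as in euhydrated rats, and higher than in euhydrated rats at the other stages. Selecting probes that are low in the control and at 30 days itself places those euhydrated values low. The filter used the mean of all 6 samples, which favours probes that are high with hypohydration. The 28 probes that met the folds but not the filter had hypohydrated medians of 0.157, 0.246 and 0.203 across the heat stages. The gap between the hydration states at the other stages is therefore a description and supports nothing.

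Between the hypohydrated 2-day and unheated samples, 38 of the 105 probes were at least 2-fold higher at 2 days, or 36.2%, beside 23.2% of all kept probes. At least 2-fold lower were 8, or 7.62%, beside 25.5%. The median log2 difference was 0.66, a 1.58-fold excess, and -0.01 over all kept probes. With the values as deposited the split was 29 higher and 13 lower, beside 71 and 213 for the kept probes, and the median was 0.34 beside -0.26. Median scaling gave 45 and 5, beside 162 and 160.

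Against the hypohydrated 30-day sample, 30 of the 105 probes were at least 2-fold higher at 2 days, or 28.6% beside 23.4% of all kept probes. Only 5 were at least 2-fold lower, or 4.76% beside 25.2%. The median log2 difference was 0.42, against -0.05 for the kept probes. The share higher was close to that of the kept probes here, and the share lower was the one that stood further away. As deposited, the split was 27 higher and 12 lower, beside 131 and 205 for the kept probes.

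**Figure D2:**
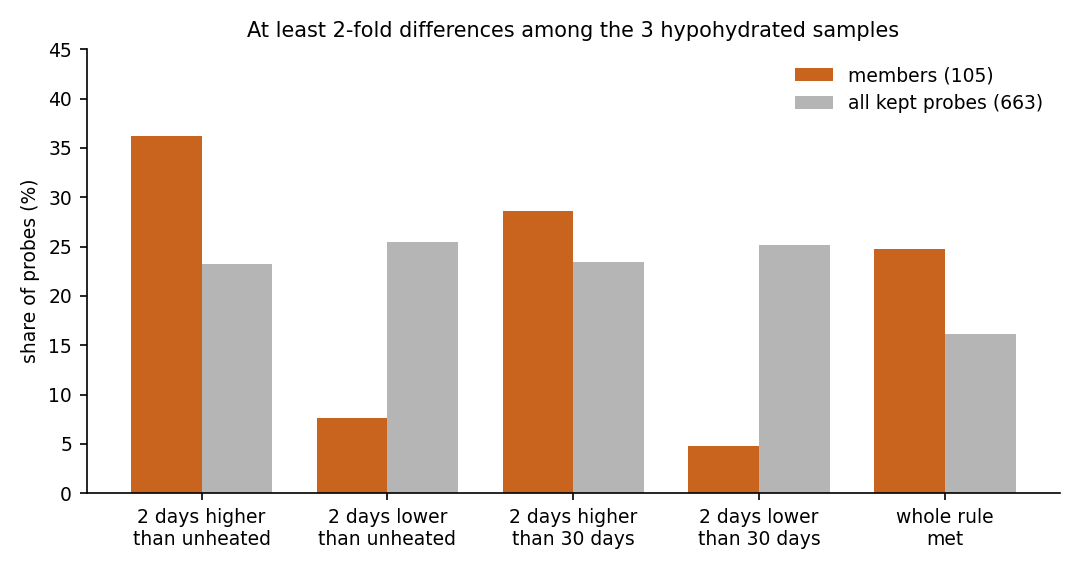
Share of probes in percent (vertical axis) with an at least 2-fold difference among the hypohydrated samples, for the 105 transiently raised probes (orange) and all 663 kept probes (grey). The last pair of bars is the share that met the whole rule in the hypohydrated samples. The orange bars are above the grey ones for higher values at 2 days (36.2% beside 23.2%, 28.6% beside 23.4%) and well below them for lower values (7.62% beside 25.5%, 4.76% beside 25.2%).

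The whole rule, applied to the hypohydrated samples in place of the euhydrated ones, was met by 26 of the 105 probes. This is 24.8% of them, beside 16.1% of all kept probes and 14.5% of the 558 kept probes outside the list. Seen from the other side, the 26 were 24.3% of the 107 kept probes that met the rule with hypohydration. A 2-day value at least 2-fold below both other hypohydrated samples was found for 3 of the 105, beside 21.1% of the kept probes, and one at least 2-fold above both for 28, beside 17.9%. The mirrored rule, a value lowered at 2 days only, was met by 3 of the 105 and by 20.5% of the kept probes. A 2-day value above both other hypohydrated samples, by any amount, was seen for 61 probes, or 58.1% beside 41.2%, and one below both for 19, or 18.1% beside 43.3%.

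For comparison, another 94 kept probes were taken after the values were seen. They were at least 2-fold higher at 2 days than in the control but failed another part of the rule. Among them 62 were still at least 2-fold above the control at 30 days, and 12 were at least 2-fold below it. The rest had a 30-day value less than 2-fold from the control and missed only the fold over 30 days. In all, 67 of the 94 missed that fold, so the set is mixed. The whole rule was met with hypohydration by 23 of these 94, or 24.5%, against 24.8% of the transiently raised probes. At least 2-fold above the hypohydrated unheated sample at 2 days were 34.0% of the 94 and 36.2% of the 105. At least 2-fold lower were 20.2% and 7.62%. These gaps were not tested. Both 2-day samples also share whatever was common to their handling, and this cannot be told apart from the heat stage.

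**Figure D3:**
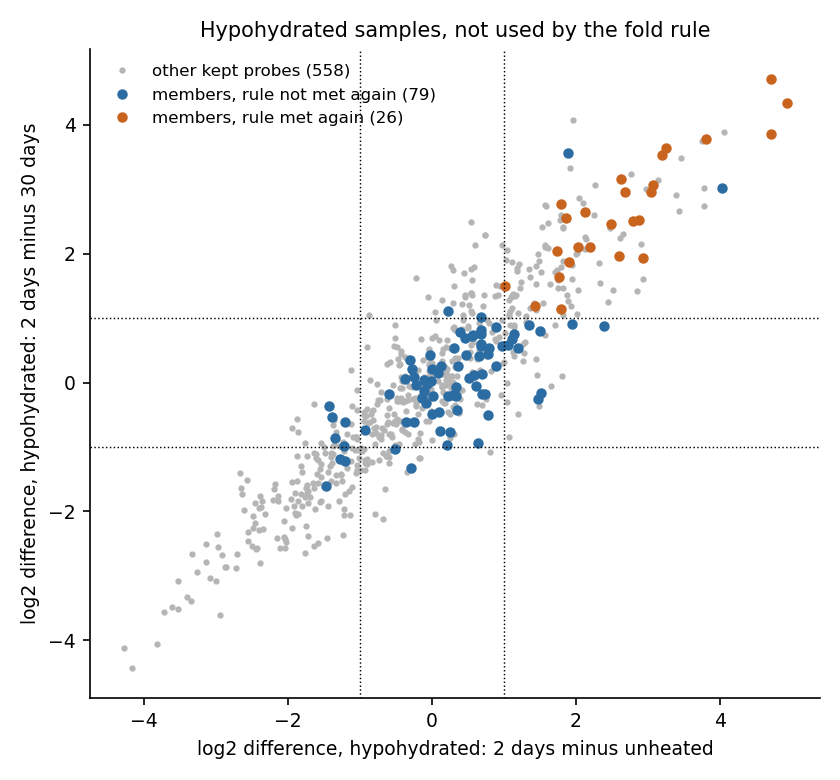
Log2 difference between the hypohydrated 2-day and unheated samples (horizontal axis) and between the hypohydrated 2-day and 30-day samples (vertical axis) for the 663 kept probes. Both axes use the same 2-day sample, which itself draws the points along the diagonal; dotted lines mark 2-fold. The 26 probes that met the rule again (orange) lie in the upper right, and few of the other 79 transiently raised probes (blue) lie in the lower left, where many other kept probes (grey) are found.

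Of the 26, R369 and R289 had the largest smaller fold among those above the floor in all 3 hypohydrated samples; 7 of the 26 were at the floor without heat or at 30 days. R369 had normalized intensities of 0.715 (control), 5.05 (2 days) and 0.556 (30 days) in the euhydrated samples. In the hypohydrated samples it had 0.166, 5.05 and 0.25. It was the brightest of all probes in both 2-day samples, so that quantile normalization gave it the same value in each. The deposited intensities were 0.635, 5.09 and 0.404, and 0.414, 4.74 and 0.326. With hypohydration R369 was 30.5-fold above the unheated and 20.2-fold above the 30-day sample, with 11.5-fold and 14.5-fold as deposited.

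R289 had 0.402, 4.04 and 0.206 in the euhydrated and 0.154, 4.04 and 0.279 in the hypohydrated samples, in the same order of heat stages. Its hypohydrated 2-day value was 26.3-fold above the unheated and 14.5-fold above the 30-day sample, and 11.1-fold and 11.9-fold as deposited. In deposited values its euhydrated 30-day level was 0.45 times the control, so that R289 would miss the return criterion on that scale. For both probes the 2 samples of 2 days were high and the other 4 low, with no overlap.

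The 105 probes fell into several courses with hypohydration, sorted after the values were seen and given as a description. The 26 that met the rule again had median normalized intensities of 0.254 in the unheated, 1.75 in the 2-day and 0.262 in the 30-day sample. The largest class, 55 probes or 52.4% (beside 41.8% of the kept probes), had a hypohydrated 2-day value less than 2-fold from both other stages. Their medians were 0.765, 0.901 and 0.901, against 0.259, 1.02 and 0.266 in the euhydrated samples. For this class the 3 hypohydrated samples were all near the euhydrated 2-day level. The filter took in these samples, which favours high values there, so this too is only a description.

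A further 10 probes were at least 2-fold higher at 2 days than in the unheated sample only, with hypohydrated medians of 0.46, 1.12 and 0.726. These are 9.52% of the 105, beside 5.28% of the kept probes. In 2 probes the 2-day value was at least 2-fold above the 30-day sample only (1.90% beside 5.43%), and in 2 it was above both while the 30-day value lay 2-fold or more from the unheated one (1.90% beside 1.81%). The remaining 10 had a 2-day value at least 2-fold below the unheated or the 30-day sample, with medians of 0.874, 0.373 and 0.804. They are 9.52% of the 105, where 29.6% of the kept probes had this course. The 2-day level of these 10 was also the lowest of the 4 larger classes in the euhydrated samples, at a median of 0.687.

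**Figure D4:**
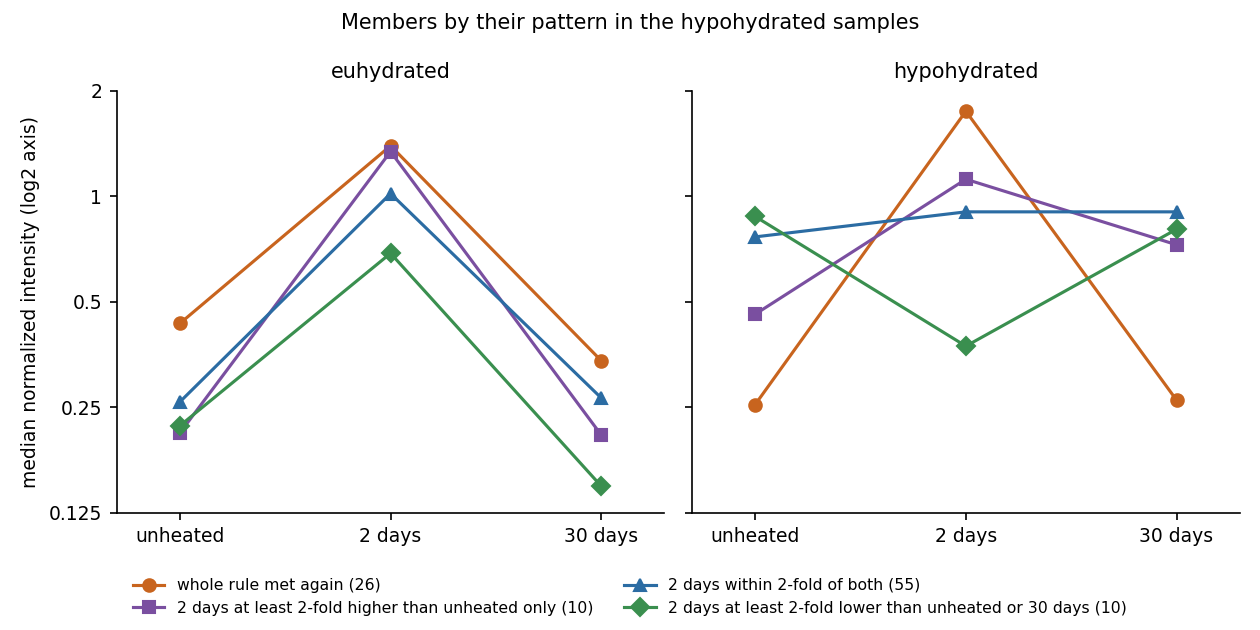
Median normalized intensity (vertical axis, log2 scale) by heat stage in euhydrated (left) and hypohydrated (right) samples, for 4 classes of the transiently raised probes sorted by their hypohydrated course, with the number of probes in brackets. All 4 lines peak at 2 days on the left, as the rule requires. On the right the 26 peak again (0.254, 1.75, 0.262), the 55 are nearly level (0.765, 0.901, 0.901) and the 10 of the last class dip at 2 days (0.874, 0.373, 0.804).

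RG391 and R106 had the most negative 2-day differences from the hypohydrated unheated sample. RG391 had 0.83, 0.3 and 0.911 in the hypohydrated samples, in the order of heat stages, and 0.27, 0.685 and 0.321 in the euhydrated ones. The 2-day sample was thus the lowest hypohydrated and the highest euhydrated value. Its log2 difference at 2 days was -1.47 from the unheated and -1.60 from the 30-day hypohydrated sample. R106 had 1.14, 0.424 and 0.545 with hypohydration, against 0.185, 0.642 and 0.147, and a log2 difference of -1.42 from the hypohydrated unheated sample. R244, with 0.398, 0.326 and 0.815, had a log2 difference of -1.32 from the hypohydrated 30-day sample.

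**Figure D5:**
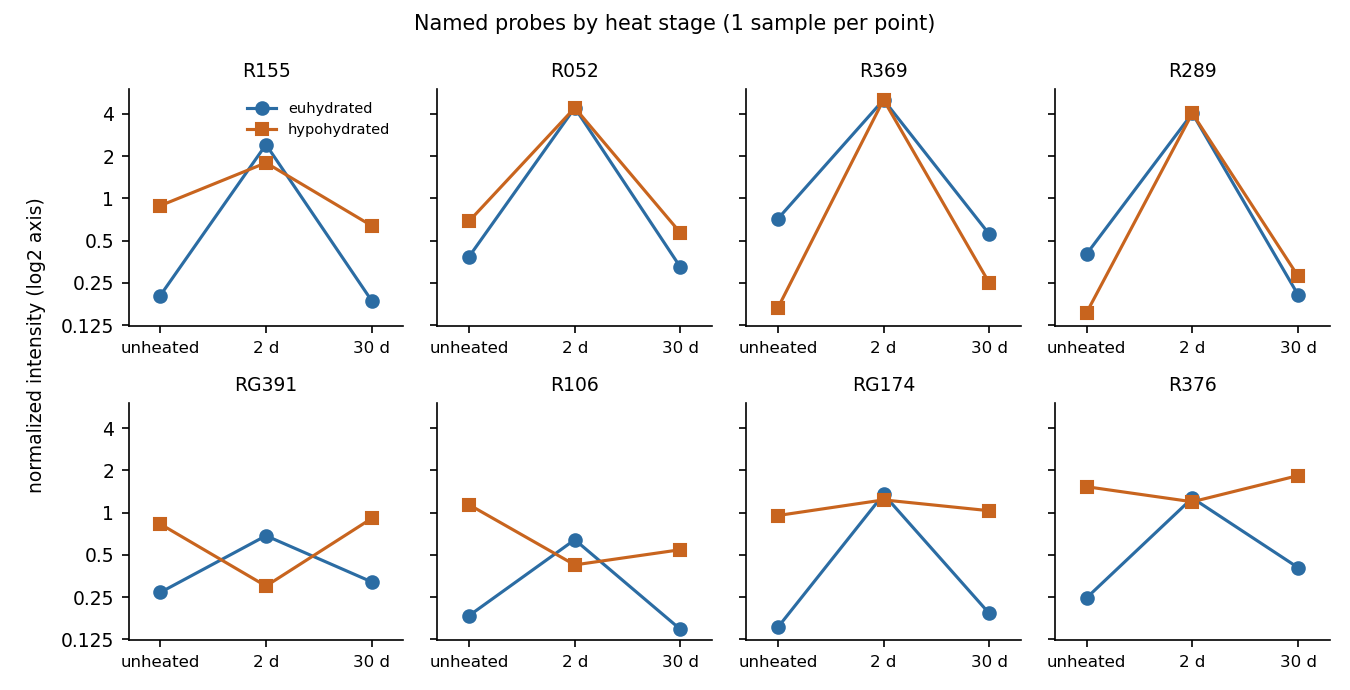
Normalized intensity (vertical axis, log2 scale) by heat stage (horizontal axis) of 8 named probes in euhydrated (blue circles) and hypohydrated (orange squares) samples, 1 sample a point. R155, R052, R369 and R289 peak at 2 days in both hydration states. RG391 and R106 are lowest at 2 days with hypohydration, and RG174 and R376 are near or above 1 in every hypohydrated sample.

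Between the hypohydrated 30-day and unheated samples the 105 probes differed about as often as the rest. At least 2-fold higher at 30 days were 10 probes, or 9.71% of the 103 that were not at the floor in both samples, beside 5.50% of the kept probes. At least 2-fold lower were 2, or 1.94% beside 5.66%. The direction depended on the scaling. As deposited 1 probe was higher and 5 were lower (1 and 65 of the kept probes). Median scaling gave 2 and 3 (7 and 28 of the kept probes). With the hydration states normalized separately the split was 5 and 1 (18 and 22). R623 read 0.184 without heat and 0.613 at 30 days, a log2 difference of 1.73, and RG120 0.209 and 0.664, a difference of 1.67. R498 read 0.75 and 0.235, a difference of -1.67, and R106 1.14 and 0.545, a difference of -1.06. Along the 105 probes the hypohydrated unheated and 30-day levels went together, with Pearson's r = 0.81 and Spearman's rho = 0.82. Over all 663 kept probes r was 0.82 and rho 0.81, so this was not particular to the 105. These are correlations across probes, which share their sample and array.

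Hypohydrated and euhydrated samples were also set side by side at each heat stage. Each of these differences contains a sample that chose the probes, so the values describe and test nothing. Without heat, the hypohydrated value was at least 2-fold above the euhydrated one for 54 probes, or 51.9% beside 19.8% of the kept probes, and 12 were at least 2-fold lower, or 11.5% beside 17.7%. At 30 days 62 were higher, or 59.0% beside 17.9%, and 12 were lower, or 11.4% beside 17.9%. At 2 days 1 was higher, or 0.952% beside 15.7%, and 12 were lower, or 11.4% beside 12.0%. The median log2 difference was 1.03 in the unheated, 1.21 in the 30-day and -0.22 in the 2-day pair. As deposited the splits were 79 higher and 1 lower without heat (223 and 27 of the kept probes). At 30 days they were 81 and 2 (197 and 49). The median log2 difference of all kept probes was then 0.43 and 0.41. Separate normalization gave 75 and 3 (203 and 52), and 80 and 1 (191 and 56). Median scaling gave 56 and 5 (122 and 168), and 58 and 9 (100 and 170). The kept probes thus also leaned to higher values as deposited and with separate normalization, but not with median scaling.

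Both without heat and at 30 days, the hypohydrated value exceeded the euhydrated one 2-fold or more for 47 probes, or 44.8%, beside 10.1% of the kept probes. Of these 47, 34 were in the level class and 2 met the rule again. This criterion uses the same hypohydrated unheated and 30-day samples as the level class and the rule. The same split was not counted for the 67 kept probes that met the criterion, so it is only a description. RG174 read 0.955, 1.23 and 1.03 across the heat stages with hypohydration and, in euhydrated rats, 0.152, 1.35 and 0.191. R376 had 1.53, 1.2 and 1.84 against 0.247, 1.27 and 0.406. For both, the euhydrated 2-day value was near the 3 hypohydrated values and the other euhydrated values were far below. Of the probes above the floor in both 30-day samples, R666 and RG412 had the largest excess, 7.34-fold and 6.17-fold, with 1.39 against 0.189 for R666 and 1.47 against 0.238 for RG412.

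In 8 probes the hypohydrated value was at least 2-fold lower both without heat and at 30 days. This is 7.62% of the 105, close to the 7.99% of the kept probes. The rule was met again by 7 of these 8, and with hypohydration by 28 of the 53 such kept probes. Both criteria use the same hypohydrated unheated and 30-day samples. Without heat R114 was furthest below its euhydrated value, with 1.06, 3.44 and 0.538 across the heat stages in the euhydrated and 0.211, 3.44 and 0.424 in the hypohydrated samples. Its unheated values stood 5.04-fold apart, and 2.2-fold as deposited. R369 followed, 4.32-fold and 1.54-fold as deposited. At 30 days R498 had 0.852 in the euhydrated and 0.235 in the hypohydrated sample and RG292 had 0.504 and 0.16. Of these 4 probes, R369 and RG292 are among the 8, and RG292 was low at 2 days as well with hypohydration, at 0.276.

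At 2 days the hydration states were most alike for these probes. RG135 was the 1 probe at least 2-fold higher with hypohydration, at 2.0 against 0.636, and RG249 followed at 2.71 against 1.51. RG045 and RG292 had the most negative differences. RG045 read 1.19 in the euhydrated and 0.193 in the hypohydrated 2-day sample, and RG292 1.33 and 0.276. Both stayed low in all 3 hypohydrated samples, with values from 0.151 to 0.259 for RG045 and from 0.16 to 0.276 for RG292. Across the 105 probes the 2-day levels of the hydration states had Pearson's r = 0.79 and Spearman's rho = 0.78. The unheated levels had r = 0.06 and rho = 0.10, and the 30-day levels r = 0.08 and rho = 0.07. Over all 663 kept probes r was 0.63 at 2 days, 0.41 without heat and 0.44 at 30 days. These are correlations across probes, which are not replicates, and the rule narrowed the euhydrated unheated and 30-day levels.

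The sizes of the euhydrated and hypohydrated peaks went together only weakly. The log2 excess of the 2-day sample over the mean of the other stages had r = 0.18 and rho = 0.14 between the hydration states across the 105 probes, and r = 0.45 and rho = 0.39 across the kept probes. The rule sets a minimum for the euhydrated excess, which narrows its range.

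The identifiers carry the prefix R or RG, whose meaning is not given in the sources used here. Of the 105 probes 53 had R and 52 RG, so that RG made up 49.5% of them beside 41.3% of the kept probes. Among the 26 that met the rule again 16 had R and 10 RG, where R made up 58.7% of the kept probes. The prefixes of all 107 kept probes that met the rule with hypohydration were not counted. Probes with neighbouring numbers were not found together more often: 14 of the 80 transiently raised probes with a kept neighbour had another such probe next to them, or 17.5%, and 18.8% of the other kept probes with a kept neighbour had one. Whether neighbouring numbers lie side by side on the array is unknown.

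The 28 probes that met the folds but not the filter were dim. Their median normalized intensity was at the floor of 0.143 in the control and at 30 days and 0.479 at 2 days. With hypohydration 10 of the 28 were at least 2-fold higher at 2 days than without heat. This is 37.0% of the 27 not at the floor in both samples, beside 23.2% of the kept probes. Lower was 1, or 3.70% beside 25.5%. The whole rule was met by 7 of the 28, and by 16.1% of the kept probes. Of the 28, 10 lay at the floor without heat, 4 at 2 days and 7 at 30 days, so these folds can rest on the floor. Of the 105, 103 also passed a filter set on the hypohydrated samples alone.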

How the data were processed

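Total RNA of 6 rat hypothalamus samples was reverse transcribed with radioactive dATP, per the labels' protocols. The authors deposited 1 table of processed intensities, 884 probes by 6 samples. Array design, scanner, background correction and normalization were not given in the sources used here, nor was the scale: a linear one was read from positive, right-skewed values, and what the columns were divided by or centred on is unknown. Values were quantile-normalized over the 6 samples (ties averaged; Python 3.11.15, numpy 2.4.6, pandas 2.3.3), set to a floor of 0.143 (the 10th percentile) and filtered on the probe mean (above 0.338). Each group has 1 sample, so counts of at least 2-fold differences stand without p-values, and precision is unknown. The code was tested on simulated data, where the rule missed most rises of probes already among the brightest, since quantile normalization leaves them no higher rank.

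Named are the 2 probes at each end of a comparison above the floor in both samples, the 2 with the largest smaller fold, and those beside the threshold. Members and rules were chosen with earlier results of these data known. The sorting by hypohydrated course and the comparison with other raised probes were added after the values were seen. The planned gene lists could not be run without gene names. Alternatives changed the scaling, floor, filter and fold. No columns were left out.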

Additional observations from a re-analysis of the deposited data

Results flagged for a closer look

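The 2-day difference had opposite signs in the hydration states for a minority of the 105 probes. With hypohydration the 2-day value was below the unheated one in 26 of the 105 and below the 30-day one in 37. It was below them in 334 and 342 of the 663 kept probes, whatever their euhydrated sign, which is a larger share each time. The 3 probes named for the most negative differences are given here. RG391 had a log2 difference of -1.47 from the hypohydrated unheated sample and -1.60 from the hypohydrated 30-day sample, R106 one of -1.42 from the unheated and R244 one of -1.32 from the 30-day sample, while the euhydrated differences were positive by the rule. The difference between the hydration states was not tested, since each group holds 1 sample. R244 lay at the floor in the euhydrated unheated and 30-day samples.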

How the results depend on the processing

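No paired analysis was possible because the comparisons among the hypohydrated samples set 1 sample against 1, which leaves no replicate to pair or leave out. An additive fit over hydration and heat stage was not run, since it takes in the euhydrated samples that chose the probes. Of 94 recomputed values, 73 stayed near the reported one, 20 moved and 1 turned its sign. The rule found between 97 and 133 probes under the alternatives, except for 66 at 3-fold and 74 among probes nowhere at the floor. With the values as deposited 129 were found, 98 of them shared with the 105. For the counts that follow, the 105 were held fixed under each scaling. The filter was applied anew to the rescaled values, so the kept probes beside them can differ from those of the Results. The count that met the whole rule again was 22 as deposited (21.0% beside 8.30% of the kept probes) and 33 with median scaling (31.4% beside 18.9%). It was 25 with the hydration states normalized separately (23.8% beside 13.7%). Of the 105, 19 met it under all 4 scalings, and how many of all kept probes did so was not counted. With those 74 only, 16 met it, or 21.6% beside 13.1% of the kept probes nowhere at the floor. Of the 74, 23 were higher at 2 days than unheated (31.1% beside 19.8%). Against 30 days 19 were higher (25.7% beside 20.4%) and 2 lower (2.70% beside 23.4%). The count lower at 2 days than unheated was 13 as deposited (12.4% beside 30.9% of the kept probes). It was 5 with median scaling (4.76% beside 22.8%) and 0 at 3-fold (beside 14.6%). The count lower than at 30 days was 12 as deposited (11.4% beside 29.7%) and 3 with separate normalization (2.86% beside 20.4%). At 1.5-fold it was 15 (14.3% beside 35.4%) and at 3-fold 1 (0.952% beside 14.3%). Without the filter it was 9 of 133 probes (6.77% beside 22.6% of all 884). Between 30 days and unheated 6 differed as deposited (5.71% beside 9.50% of the kept probes) and 5 with median scaling (4.76% beside 5.28%). With separate normalization 6 differed (5.71% beside 6.03%). At 1.5-fold 31 differed (29.5% beside 29.3%) and at 3-fold 3 (2.86% beside 1.96%). The median 2-day log2 difference from unheated was 0.34 as deposited and 0.88 with median scaling, where the median of all kept probes also shifted, so it stayed between 0.54 and 0.72 above them in the 8 alternatives run. The median of 30 days minus unheated turned from 0.11 to -0.12 as deposited, with all kept probes at -0.24. The causes were not tested, except that fewer probes enter where the floor, filter or fold removes them. In the 10 alternatives for each count, the share of these probes higher at 2 days than unheated or 30 days was above that of all kept probes, and the share lower was below it. Signal over background is unknown.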
